A study of Bos taurus with 6 samples.

Results

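In blood DNA of 6 cattle, 774 windows of 1000 bp held few covered CpG cytosines and lay away from windows that held many. These counts are of what was read, since no genome sequence or island map was used. All 774 were under 20% methylated in every library that measured them. They were found on a fixed grid over the 29 autosomes of the genome build UMD3.1. A window counted as CpG-poor when fewer than 20 distinct cytosines in it were covered by any library, and as far from dense sequence when no window with 60 or more covered cytosines lay within 2 windows on either side. A library measured a window when it read 3 or more cytosines there with 10 or more read calls. The window then had to be measured in 2 or more libraries of each group, with under 20% of the summed calls methylated in every measured library. Of 59286 autosomal windows measured in 2 or more libraries of each group, 20220 were CpG-poor and far from dense windows, and the 774 were 3.83% of these. Their low level was the basis of the choice and is given below as a description.

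In mammals, most CpG sites are methylated, and the methyl group is copied to the new strand at each cell division by the maintenance methyltransferase. CpG islands, the CpG-dense stretches at many promoters, are the best known exception and stay unmethylated in most tissues. A further class of sites that lose methylation is CpG-poor and lies away from promoters, and many such sites are enhancers bound by transcription factors in the cells studied.

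The libraries were made by reduced representation bisulfite sequencing, in which DNA is cut at CCGG by the enzyme MspI, short fragments are selected, and bisulfite turns unmethylated cytosines into bases that read as thymine. All animals were adult males, with 1 library each, and the labels name no treatment. Among the 3 Creole libraries, Creole 1 came from the Sanmartinero breed, while Creole 2 and Creole 3 came from Costeno con Cuernos. Among the 3 Spanish libraries, Spanish 1 was Retinta, Spanish 2 was Asturiana de los Valles and Spanish 3 was of the Lidia breed. Blood is a mixture of cell types, and a partly methylated window can come from a share of the cells or of the DNA copies. The 2 groups also differed in the kit used for DNA extraction and in the sequencing lane that the data files name, and none of these can be told apart from breed group.

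Creole 1 stood apart from the other libraries. It read 3391903 autosomal cytosines, against 669467 to 1632409 in the others, and its autosomal calls numbered 80245850, against 38633007 to 50188196. It also measured 766 of the 774 windows, whereas Creole 3, the sparsest library, measured 388. In all, 434 of the windows were measured in 4 libraries, 255 in 5 and 85 in all 6. The median over windows and libraries was 150 calls on 7 cytosines, and calls ranged from 10 to 18697.

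CpG-poor windows fell into a large methylated and a small unmethylated class. Of the 20220, 2716 (13.4%) were at 80% or more in every measured library, and by the mean over libraries the fullest bin of the scale was 75% to 80%, with 2408 windows. In 745 windows (3.68%), 1 library read under 20% and another 80% or more. The lowest 5% of the scale held 723 windows by their mean over libraries, of which 708 met the rule. The 5 bins from 5% to 30% held 177 to 218 windows each, and the counts rose beyond them. Among CpG-dense windows the unmethylated share was far larger, with 3507 of 8557 (41.0%) under 20% in every measured library.

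**Figure D1:**
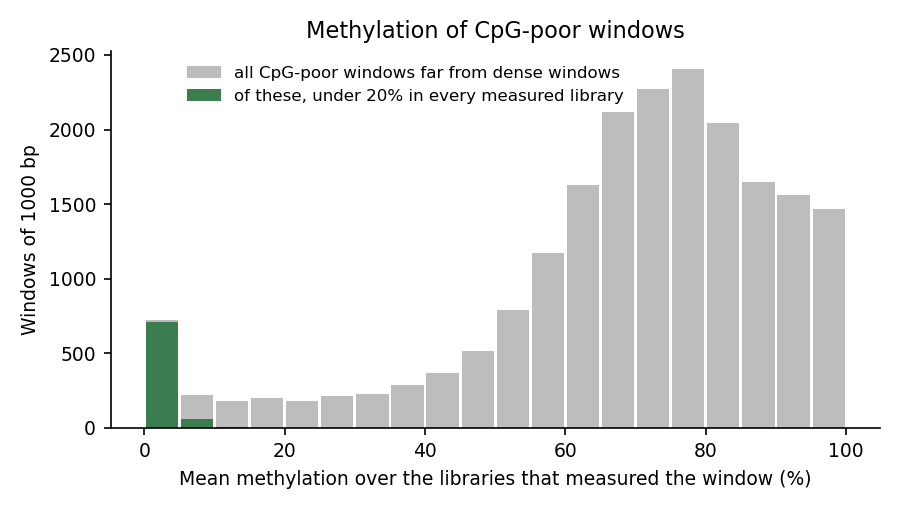
Number of CpG-poor windows (vertical axis) by mean methylation over the libraries that measured them (horizontal axis, percent, bins of 5%), with all 20220 windows in grey and the 774 under 20% in every measured library in green. The green windows sit almost wholly in the lowest bin, which holds 723 windows, separate from the broad methylated peak.

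Within the unmethylated windows, most libraries read no methylation at all. The median level was 0% in Creole 2, Creole 3 and all 3 Spanish libraries, and 1.44% in Creole 1. The mean level was 3.98% ± 5.17 in Creole 1 (SD over 766 windows) and lay between 0.804% and 0.941% in Creole 2, Creole 3, Spanish 1 and Spanish 3, with 1.496% in Spanish 2. Creole 1 read 15.5% of its windows at 10% or more, against 3.47% to 6.80% in the other libraries. In 133 windows every measured library was at 0%, and in 463 the highest library was under 5%. Of the 191 windows whose highest library reached 10% or more, that library was Creole 1 in 103.

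Where a window reached 10% or more, the methylated calls often sat on 1 cytosine. Outside Creole 1 there were 131 such readings, and in 89 of them a single cytosine held every methylated call. In Creole 1, with 119 such readings, this was so in 13, and the top cytosine held a median of 44.2% of the methylated calls. Of 5433 cytosines in these windows with 10 or more calls in 2 or more libraries, 5008 (92.2%) were under 20% in all of them. Another 95 reached 80% or more in at least 1 library, but only 5 did so in every library that read them, and 84 were under 20% in another library.

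The windows nearest the limit show what it separated. Just inside, the highest library read 19.6% in windows on chromosome 13 (40920001 to 40921000, Creole 1), chromosome 10 (86192001 to 86193000, Spanish 2) and chromosome 12 (24645001 to 24646000, Spanish 2). Just outside, windows on chromosomes 1 (89207001 to 89208000), 2 (66606001 to 66607000) and 3 (120991001 to 120992000) reached exactly 20% in Creole 3, Creole 2 and Creole 2. The value of 20% rested on 20 calls in the window on chromosome 2 and on 15 calls in that on chromosome 3.

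A library that took no part in choosing a window by its level shows how far the libraries agree on that window. Each library was left out in turn, windows were chosen on the levels of the other 5, and the left-out library was then read where it measured the window. The count of covered cytosines kept all 6 libraries. Of the windows so chosen, Creole 1 read 207 of 252 under 20% (82.1%, 95% Wilson interval 76.9 to 86.4%). The counts were 207 of 219 for Creole 2 (94.5%) and 207 of 221 for Creole 3 (93.7%). Spanish 1 read 218 of 231 (94.4%), Spanish 2 read 218 of 233 (93.6%) and Spanish 3 read 218 of 236 (92.4%). Creole 1 was thus the lowest and the other 5 lay close together.

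All CpG-poor windows measured in the same libraries gave a far lower share. Under 20% were 6.53% of 5654 windows in Creole 1 and 8.49% to 9.43% in the other 5 libraries. The chosen windows exceeded this by 83.2 ± 3.81 percentage points (SD, n = 6 libraries), in the same direction in 6 of 6 (exact two-sided sign-flip permutation test p = 0.03125, the smallest that 6 libraries allow, Benjamini-Hochberg adjusted p = 0.0625 over 4 tests). The median level in the left-out library was 0% in all libraries except Creole 1, where it was 2.41%, against medians of 70.7% to 75% over all CpG-poor windows. A left-out library at 80% or more was rare, with 0 to 2 windows per library. Leaving out a library required both others of its group to measure the window and be under 20%. The windows counted as low were therefore the same 207 for each Creole library and the same 218 for each Spanish library. All of these are among the 774, and only the chosen windows that were not low differ between libraries of a group. The 6 differences are thus not independent, and the p-value does not rest on 6 separate results.

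**Figure D2:**
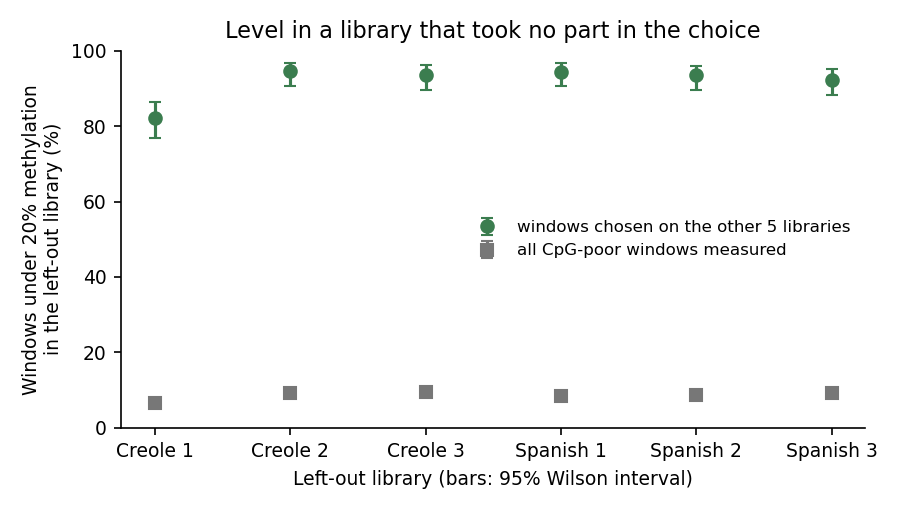
Share of windows under 20% methylation in a left-out library (vertical axis, percent) for each of the 6 libraries, for windows chosen on the other 5 libraries (circles) and for all CpG-poor windows measured (squares), with 95% Wilson intervals. Circles lie between 82.1% and 94.5% and squares between 6.53% and 9.43%.

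Libraries that read too few cytosines or too few calls to measure a window gave a further reading outside the rule. In the 774 windows there were 223 cases where a library had calls but fewer than 3 cytosines or fewer than 10 calls, with a median of 6 to 8 calls per library. In 201 of these (90.1%) it read under 20%, and in 5 it read 80% or more. In the other CpG-poor windows the corresponding figures were 621 of 6442 (9.64%) and 2767. By library the share was 75% to 96.5% in the unmethylated windows, the lowest being Creole 1 with 4 cases and Spanish 3 with 36.

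The 10 windows with the most calls in their poorest library, all measured in all 6 animals, show how near to 0 the levels were. On chromosome 17 (56584001 to 56585000), 16 cytosines spanned 291 bp. Creole 1 gave 0.651% from 1689 calls, with a 95% Wilson interval of 0.364 to 1.16%. Creole 2 gave 0% from 1385 calls, with an upper bound of 0.277%, and Creole 3 gave 0% from 1707 calls, with an upper bound of 0.225%. The Spanish libraries read 0.0454% (2202 calls), 0.117% (853 calls) and 0% (1034 calls). All 6 libraries were below 1%, and the groups overlapped. The adjacent window towards the start of the chromosome, at 0% to 3.30% in 6 libraries, is itself among the 774, so the rule required its low level.

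In 4 of the windows that followed by depth, the highest library was above 4%. On chromosome 8 (69903001 to 69904000), Spanish 1 read 15.6% (13.9 to 17.6%, 1438 calls), whereas the other 5 libraries read 0% to 0.240%. In Spanish 1, 1 cytosine at position 69903653 was methylated in 224 of 240 calls, and the other 5 cytosines together in 1 of 1198. On chromosome 2 (125393001 to 125394000), Spanish 1 read 5.16% (2.91 to 9.01%, 213 calls) and the others 0% to 0.503%, and here 1 of 17 cytosines carried all 11 methylated calls. On chromosome 3 (8439001 to 8440000), Spanish 2 read 7.41% (4.61 to 11.7%, 216 calls) and the others 0% to 1.12%, again with every methylated call on a single cytosine. A window on chromosome 17 (55748001 to 55749000) read 4.80% in Creole 2 (2980 calls) and 3.17% in Creole 1 (315 calls), against 0% in the remaining 4. In Creole 2 all 143 methylated calls lay on 1 cytosine at position 55748369. The window directly after that of chromosome 17 held 36 covered cytosines at 0% to 2.70% in 4 libraries. In the highest library of each of these 4 windows, 1 cytosine thus held all or nearly all methylated calls.

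In another 3 of the 10, Creole 1 was the highest library and the others were below 0.4%. On chromosome 19 (27589001 to 27590000) the levels were 1.21% in Creole 1, 0.198% in Creole 2 and 0% in the other 4. On chromosome 13 (78021001 to 78022000) Creole 1 read 3.66%, with 13 of its 17 methylated calls on 1 cytosine, and no other library read above 0.0684%. On chromosome 5 (26944001 to 26945000) the highest library was Creole 1 at 0.556%. The window after it held 34 covered cytosines at 0% to 4.85% in 3 libraries. The window on chromosome 23 (42361001 to 42362000) rested on 4 cytosines within 62 bp and read 2.03% in Creole 1, 1.33% in Spanish 1 and 0% in the other 4.

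**Figure D3:**
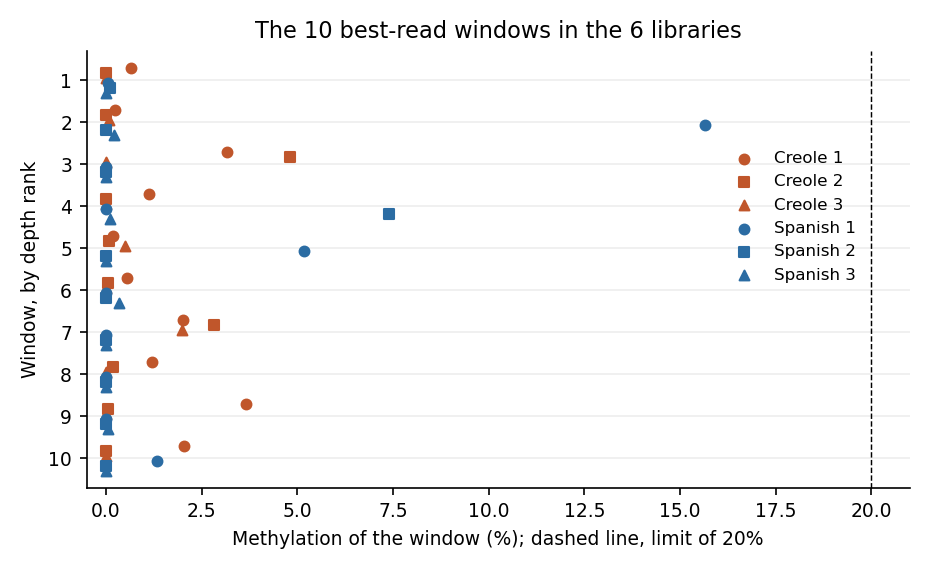
Methylation (horizontal axis, percent) of the 10 windows measured in all 6 libraries with the most calls in their poorest library, ranked by those calls (vertical axis), with Creole libraries in orange and Spanish libraries in blue. Points cluster at 0, and the single point beyond 10% is Spanish 1 at 15.6% in the window of rank 2.

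Creole and Spanish animals were then compared. Over the 85 windows measured in all 6 libraries, Creole 1 averaged 4.06%, Creole 2 averaged 1.06% and Creole 3 averaged 0.554%. Spanish 1 averaged 1.15%, Spanish 2 averaged 1.57% and Spanish 3 averaged 1.12%. Creole 1 was highest and Creole 3 lowest, so the groups overlapped. The mean and SD over 3 libraries were 1.89% ± 1.90 in the Creole group and 1.28% ± 0.255 in the Spanish group. Creole libraries were thus 0.613 points higher on average (exact two-sided permutation test p = 1, where 0.10 is the smallest possible). Without Creole 1 the difference was -0.216 points over 182 windows. With windows of 500 bp it was -1.24 points over 15 windows. The rule caps every level at 20% and so bounds any difference between groups.

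Single windows were tested in a fit over all 59286 measured windows of any density. No window passed an adjusted p of 0.05 in edgeR's quasi-likelihood test, so the background was 0% and 0 of the 774 were called. At an unadjusted p under 0.05, the same test gave 22 of the 774 (2.84%), against 3.83% of all windows. The likelihood ratio test of edgeR, which does not carry the uncertainty of the estimated spread, called 8 of the 774 (1.03%) and 2.08% of all windows, and limma called 0 of 85 and 0 of all 14764 windows it tested. Of the 85 windows measured in all 6 libraries, 3 had every Creole library above every Spanish one, against 5.43% of all such windows, and 1 had the opposite order, against 6.37%. The smallest p among the 774 belonged to a window that depth had already named, on chromosome 5 (103894001 to 103895000). It read 2.01% in Creole 1, 2.83% in Creole 2 and 2.00% in Creole 3 (497, 10611 and 150 calls). All 3 Spanish libraries read 0% there (320, 319 and 850 calls). Its adjusted p was 1 in edgeR's quasi-likelihood test. The window before it held 53 covered cytosines at 0% to 4.86% in 5 libraries.

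Neighbouring windows were also lower than those around the other CpG-poor windows. The rule set no limit on the methylation of a neighbour, but neighbours that are themselves among the 774 were not left out. Of 266 measured windows directly beside the 774, 34 were such windows. How many lay 2 to 10 kb away was not counted. In the windows directly beside the 774, mean methylation ranged over the libraries from 13.0% in Spanish 3 to 22.5% in Creole 1. Beside the other CpG-poor windows it was 67.9% to 70.3%. An adjacent window can share a fragment with the one it borders, so windows 2 to 10 kb away were taken as the main comparison. There Creole 1 averaged 57.0%, Creole 2 averaged 52.5% and Creole 3 averaged 51.3%, while Spanish 1 averaged 51.7%, Spanish 2 averaged 54.5% and Spanish 3 averaged 48.7%. All were below the 64.7% to 67.2% around the other CpG-poor windows.

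The difference at 2 to 10 kb was -13.1 ± 2.10 points (SD, n = 6 libraries; exact two-sided sign-flip permutation test p = 0.03125, the smallest possible, adjusted p = 0.0625), lower in 6 of 6 libraries. All 6 libraries were read around the same 774 windows. The SD and the p-value thus measure agreement between libraries at these positions, not spread over windows. The neighbours that were themselves CpG-poor read 58.0% to 63.6% around the unmethylated windows and 68.8% to 71.5% around the others, a mean difference of -9.10 points, in an alternative chosen after the data were seen. Directly adjacent windows differed by -51.0 points. Methylation rose from 17.1% and 18.4% at 1 kb on either side to 47.2% and 41.5% at 2 kb, and to 56.5% and 57.1% at 10 kb. Around unmethylated dense windows the values at those distances were 12.3% and 12.6%, 35.6% and 34.2%, and 58.6% and 57.6%.

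**Figure D4:**
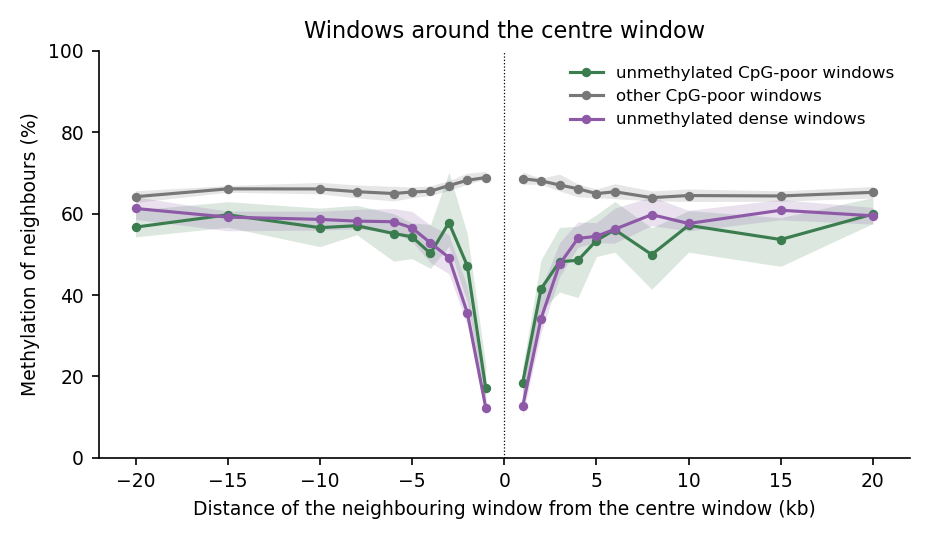
Mean methylation of neighbouring windows (vertical axis, percent) by distance from the centre window (horizontal axis, kb) around unmethylated CpG-poor windows (green), other CpG-poor windows (grey) and unmethylated dense windows (purple); lines are means over 6 libraries and bands run from the lowest to the highest library. The green and purple means dip to below 20% at 1 kb while the grey means stay between 63.9% and 68.9%.

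Low methylation often continued into the adjacent window, which in most cases was too dense to meet the rule. Of 266 distinct windows directly beside the 774 that were measured in 2 or more libraries of each group, 164 (61.7%) were under 20% in every measured library, a count added after the data were seen. Of those 164, 128 held 20 or more covered cytosines and 34 were themselves among the 774. Beside the other CpG-poor windows the corresponding share was 189 of 3537 (5.34%). The 34 formed 17 pairs, and no run of windows that all met the rule was longer than 2. On chromosome 1, a pair (68936001 to 68938000) read 0% to 0.952% in the 5 libraries that measured each window. Its covered cytosines lay from 68936836 to 68936981 and from 68937001 to 68937051, so the grid line divided a single short stretch. On chromosome 2, a pair (46648001 to 46650000) read 0% to 1.17%, while the window after it was at 100% in the 2 libraries that measured it. On chromosome 3, a pair (19505001 to 19507000) was measured in all 6 animals and read 0% to 4.93%. The covered cytosines of these pairs also ran close to the grid line on both sides. They lay from 46648672 to 46648983 and from 46649005 to 46649409 on chromosome 2. On chromosome 3 they lay from 19505469 to 19505984 and from 19506020 to 19506060. In 19.5% of the 774 neither adjacent window had a covered cytosine, against 35.0% of the other CpG-poor windows, so neighbours of the 774 were read more often.

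The rule calls these windows CpG-poor and far from dense windows by counts of covered cytosines. The sequence read in them was not as sparse as in other CpG-poor windows. Within the stretches that a library read, neighbouring CpGs of the unmethylated windows lay a median of 15 to 17 bp apart over the 6 libraries. In windows at 80% or more the median was 18 to 19 bp, in all other CpG-poor windows 23 to 24 bp, and in unmethylated dense windows 7 bp. The share of unmethylated windows rose with density, from 2.54% of windows with 3 to 9 covered cytosines to 4.02% at 10 to 14 and 5.23% at 15 to 19. Density here counts what was read, and an island that the assay missed would count as poor.

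**Figure D5:**
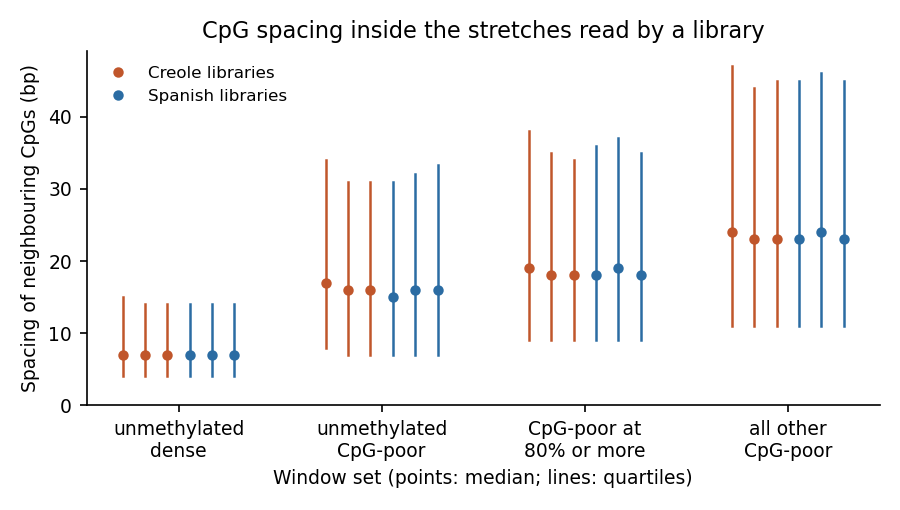
Spacing of neighbouring CpGs within stretches read by 1 library (vertical axis, bp) for 4 sets of windows, with a point for the median and a line for the quartiles of each library. The unmethylated CpG-poor windows, at medians of 15 to 17 bp, lie between unmethylated dense windows at 7 bp and all other CpG-poor windows at 23 to 24 bp.

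Moderately dense neighbours were also more frequent. The densest window within 2 kb held a median of 18 covered cytosines around the 774 and 7 around the other CpG-poor windows, and it held 30 or more in 33.1% of the 774, against 13.998% of the others. The nearest window of 60 or more cytosines lay a median of 56.5 kb away (quartiles 21 and 163 kb), against 74 kb for the others. Without any window that had a neighbour of 30 or more, a limit chosen after the data were seen, 518 windows remained. In these, the left-out libraries exceeded all such CpG-poor windows by 84.5 points, and the flanks differed by -10.8 points, both with p = 0.03125 by the exact sign-flip permutation test. These are descriptions of position, and whether any window is an enhancer was not tested.

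Depth per cytosine was close to that of other CpG-poor windows. The median was 17.5, 35.7, 43.4, 12.6, 20 and 25 calls per cytosine in Creole 1 to 3 and Spanish 1 to 3. The other CpG-poor windows had 17, 33.8, 46, 12, 18.4 and 23. The difference of 0.06 ± 0.08 on the log2 scale (SD, n = 6) was positive in 5 of 6 libraries and did not pass the exact sign-flip permutation test (p = 0.15625, adjusted p = 0.208). With cytosines weighted equally in choosing the windows it was 0.10 and passed the unadjusted test (exact permutation p = 0.03125), and against windows at 80% or more in every measured library it was 0.30 (exact permutation p = 0.0625).

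Library preparation fills in the ends that MspI leaves, so the cytosine on the filled strand of an end CpG is not the native one and is expected to read as unmethylated. The files give no strand, so filled positions were inferred from which adjacent positions were covered. In the other CpG-poor windows, all positions so inferred read 9.60% to 21.2% over the 6 libraries, and the remaining cytosines 70.4% to 80.1%. Where the partner strand was read too, they read 2.78% to 3.997%, and the partner 78.7% to 87.5%. In the unmethylated windows the partner strand, which carries the native base, read 16.4% in Creole 1. It read 0.196% (Spanish 3) to 6.12% (Creole 3) in the others. The remaining cytosines of these windows read 4.30% in Creole 1 and 0.945% to 1.59% in the others. Such pairs numbered 356 in Creole 1 and 200 in Spanish 2, but only 31 (Creole 3) to 92 (Spanish 1) in the rest. Filled positions made up 6.56% to 9.73% of the cytosines read in the unmethylated windows. Without them 672 of the 774 windows could still be measured, and 655 of these remained under 20% in every measured library. With both strands of every end CpG removed, 467 of 497 did.

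Reading of both strands was counted only for CpGs whose positions on both strands were covered, by the same library or by different ones. In the unmethylated windows, Creole 1 read both strands in 61.1% of such CpGs that it read. The share was 6.62% to 37.2% in the other 5 libraries. CpGs covered on 1 strand only in every library were left out, so the share among all CpGs read is lower in each library. That share was not counted. Single cytosines with 10 or more calls were all methylated or all unmethylated in most cases. In the other CpG-poor windows, only 8.59% to 11.3% of such cytosines read between 0% and 100% in the 5 other libraries, against 42.0% in Creole 1. The labels describe PCR and name no molecular identifier, so calls are not independent molecules and the intervals cover counting error only.

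Of 316 autosomal regions of differential methylation in the authors' deposited table, none overlapped the 774 windows. They overlapped 18 of the 20220 CpG-poor windows and 222 of the 59286 measured windows. The limit of 20% in every library of both groups leaves little room for such an overlap. The gene coordinates of that table placed 8 windows within 10 kb of a listed gene, out of 293 such pairs among all CpG-poor windows (2.73%, near the 3.83% of the whole). That table gives coordinates for 247 autosomal genes, and no other gene annotation of this build was used. None of the 24 blood cell marker genes listed for this purpose was among them.

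Beside PPP1R15A, which encodes a subunit that steers protein phosphatase 1 in the cellular stress response, a window on chromosome 18 (55930001 to 55931000) began 707 bp past the higher end of the gene in the authors' deposited table. It read 2.59% in Creole 1 (116 calls) and 0% in Creole 3, Spanish 1, Spanish 2 and Spanish 3 (80 to 380 calls). The window after it was methylated, at 72.2% to 79.7% in 3 libraries, so the level changed within 2 kb.

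A window on chromosome 29 (38001001 to 38002000) lay 3199 bp before the coordinates that the authors' deposited table gives for CD5_BOVIN, the entry for a surface glycoprotein of T cells. Creole 1 and Spanish 2 read 1.08% and 1.10%, and Creole 2 and Spanish 1 read 0%, from 91 to 277 calls. Its covered cytosines lay from 38001001 to 38001042, at the edge of the window. Directly before it, a window of 10 covered cytosines read 0% to 40% in 4 libraries. The window directly after it read 0% in 2 libraries. Another window of chromosome 29 (42397001 to 42398000) overlapped the lower end of the entry F1MYQ2_BOVIN in the authors' deposited table. It read 2.90% in Creole 1 and 0% in Creole 3 and all 3 Spanish libraries, and Creole 2 had no calls. The windows before and after it read 78.3% and 66.7%, in 1 library each.

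Beside ZNF503, which encodes a zinc finger protein that represses transcription, a window on chromosome 28 (31323001 to 31324000) lay 2626 bp past the higher end of the gene in the authors' deposited table. Creole 1 read 12.7% (71 calls), Creole 2 read 16.6% (229 calls), Spanish 1 read 16.7% (1128 calls) and Spanish 3 read 0% (48 calls). The methylated calls of Creole 2 and Spanish 1 sat on the same cytosine at position 31323664, with 38 of 38 and 188 of 188 calls, and their other cytosines were at 0%. On the opposite strand of that CpG (position 31323663), Creole 1 read 5 of 9 calls as methylated, and its other 12 cytosines 4 of 62. At position 31323664 itself, Creole 1 read 0 of 2 and Spanish 3 read 0 of 8. This CpG is described because it was seen in the data. The window after that of ZNF503 held 30 covered cytosines at 6.55% to 41.6% in 3 libraries.

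The other 4 windows near listed genes were as follows. Near ENSBTAG00000043911 on chromosome 21 (10801001 to 10802000), Spanish 2 read 16.4% with all 26 methylated calls on 1 cytosine. The other 3 measured libraries read 0% to 2.23%. Its covered cytosines lay from 10801001 to 10801182. The window before it held 46 covered cytosines at 0% to 30.9%, and the window after it 53 at 0% to 7.40%. Within F1N6U4_BOVIN on chromosome 19 (55146001 to 55147000), Creole 1 read 13.0% from 23 calls, and the other 3 libraries 0%. The window before it held 38 covered cytosines at 0% to 7.34%. Near ENSBTAG00000045385 on chromosome 26 (18429001 to 18430000), the highest of 5 libraries was 0.490%. The window after it held 50 covered cytosines at 0% to 4.31%. The last, near Q2KHW2_BOVIN, was the window on chromosome 23 given above.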

How the data were processed

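The deposited coverage files give, per cytosine, counts of methylated and unmethylated read calls, and the percent methylated, which the authors deposited beside them and which was recomputed from the counts. Per the submitters' processing notes the tools were Trim Galore, Bismark and methylKit and the build was UMD3.1; versions and the role of each tool were not given in the sources used here. The authors' deposited table of regions lists group means as a fraction, a score per region and gene coordinates; only positions and gene coordinates were used. Calls were summed over windows, and each strand counted as its own cytosine. Members, gene lists and tests were chosen with earlier results of these data known. Windows named are the 10 best read, the 3 longest runs (the first by position, as all were of equal length), overlaps with deposited regions, windows within 10 kb of a listed gene, and 3 on each side of the limit; others are marked. Stretches were covered cytosines at most 225 bp apart, and spacing used gaps of at most 150 bp. Window tests used edgeR 4.0.16 (library effects, dispersion without trend, unmeasured libraries set to 0) and limma 3.58.1 in R 4.3.3, and the rest Python 3.11.15, numpy 2.4.6, pandas 2.3.3 and scipy 1.17.1. Scripts were tested on simulated data. Libraries were numbered within a group by accession order. Since nothing beyond 1 library per animal is known, the spread between libraries includes that between animals and breeds. Scaffolds were left out.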

Additional observations from a re-analysis of the deposited data

How the results depend on the processing

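The count of 774 windows depends on the limits. It was 494 with 5 cytosines needed, 476 with density under 15, 1605 with density under 30, 261 with 500 bp windows, 1939 with 2000 bp windows and 469 with strands merged, and within 1.5 times of 774 under the other alternatives that keep all libraries. Leaving out a library also lowers the density that is counted, and gave 354 (without Spanish 2) to 627 (without Creole 3) windows: 477 without Creole 1, of which 215 were among the 774, 410 without Creole 2, 492 without Spanish 1 and 530 without Spanish 3. The excess of low windows in left-out libraries was 81.5 to 84.8 points under all 18 alternatives with 6 libraries. It was 80.4 to 84.5 points without any 1 library, where only 3 libraries could be held out and the smallest possible p is 0.25. The flank difference kept its sign everywhere, at -51.0 (adjacent windows) to -9.10 points, and at -19.4 (without Creole 1) to -10.8 points without 1 library, where the smallest possible p is 0.0625. The depth difference was -0.013 on the log2 scale with 500 bp windows and passed its test with cytosines weighted equally (0.10, p = 0.03125 by the exact permutation test). The group difference was -1.24 points with 500 bp windows and -0.216 to 1.38 points without 1 library, negative only without Creole 1. The likelihood ratio test called 1236 of all windows and 8 of the 774, and every other fit called 0. No paired analysis was possible because the replicate numbers come from the sample order and pair no animals.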

Other observations

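On the X chromosome, which the rule leaves out, 13 of 433 CpG-poor windows far from dense windows met the same limits (3.002%, 95% Wilson interval 1.76 to 5.07%). Among autosomes the share ranged from 1.72% on chromosome 20 (8 of 466) to 7.27% on chromosome 10 (50 of 688). Chromosomes 18 and 19 held the most unmethylated windows, 59 of 1001 (5.89%) and 58 of 1175 (4.94%). They also held the most CpG-poor windows far from dense windows.

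Among the other CpG-poor windows, the median level was exactly 75% in 4 of the 6 libraries. Windows at exactly 75% made up 5.58% to 7.36% of those measured in each library except Creole 1, where they were 1.13%. In Spanish 3, 880 of its 1005 such windows had exactly 4 cytosines read. With the filled cytosines removed, 439 windows of Spanish 3 read exactly 75%, and the median level of the other CpG-poor windows was 79.9% to 88.5% over the 6 libraries.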
